A study of Mus musculus with 130 samples.

Results

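Hepcidin is encoded in the mouse by 2 neighbouring genes, Hamp (ENSMUSG00000050440) and Hamp2 (ENSMUSG00000056978), and their transcripts were followed across 5 diets and 114 strains. They were chosen by name and identifier, as 2 of the 35274 genes of the diet table and of the 35711 genes of the strain table. Both passed the filter on low counts in both tables. Pieces of about 20 mg from the large liver lobe of 130 mice labelled male gave the RNA, which was made into libraries with a stranded mRNA kit. In the diet study, C57BL/6J mice, 3 per diet, ate chow, sufficient iron at 50 ppm, elevated iron at 500 ppm, carbonyl iron at 2% of the diet (20000 ppm), or the latter with cellulose as its fibre. In the panel, every mouse ate chow for 4 weeks and then the 2% carbonyl iron diet for 6 weeks, so the panel holds no mouse on low iron. It covered 56 BXD strains, 20 AXB/BXA, 4 BXH, 3 CXB and 31 other inbred strains, each represented by 1 mouse, or by 2 in the case of 129X1/SvJ. The labels give neither ages, nor the iron content of chow, nor how long the diet study lasted.

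Hepcidin is a peptide hormone that hepatocytes secrete. It binds ferroportin, the iron exporter made from Slc40a1, and has it degraded, which holds iron inside gut cells and macrophages and lowers iron in plasma. Its transcription rises with liver iron through BMP6 and BMP2 from endothelial cells, the co-receptor hemojuvelin (Hjv), HFE and TFR2, and the SMAD proteins, and rises in inflammation through IL-6 and STAT3. Mice carry a duplicated locus, and Hamp2 is known as the copy whose product lacks the effect of Hamp on plasma iron.

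Both genes lie on the minus strand of chromosome 7 in GRCm38, Hamp at 30942368 to 30944032 and Hamp2 at 30922372 to 30924681 (GENCODE M21). The sequences just before the first exon are shown because they carry the sites through which BMP and inflammatory signals are known to act on Hamp. Both are from RefSeq on GRCm38.p6, read 5′ to 3′ on the minus strand, and end at the last base before exon 1. The Hamp2 window also lies in an intron of a longer annotated Hamp2 transcript. Capitals mark, in order, GGCGCC or its counterpart in Hamp2 (the core of BMP-responsive elements), a match to TTCNNNGAA (the form bound by STAT proteins) and a match to TGANTCA (the form bound by AP-1).
Hamp, chr7:30944033-30944279: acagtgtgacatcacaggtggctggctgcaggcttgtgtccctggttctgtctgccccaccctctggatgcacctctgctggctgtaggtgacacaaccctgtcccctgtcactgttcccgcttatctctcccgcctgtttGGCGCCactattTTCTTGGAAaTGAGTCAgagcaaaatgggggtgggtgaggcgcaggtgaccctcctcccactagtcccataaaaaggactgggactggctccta
Hamp2, chr7:30924182-30924431: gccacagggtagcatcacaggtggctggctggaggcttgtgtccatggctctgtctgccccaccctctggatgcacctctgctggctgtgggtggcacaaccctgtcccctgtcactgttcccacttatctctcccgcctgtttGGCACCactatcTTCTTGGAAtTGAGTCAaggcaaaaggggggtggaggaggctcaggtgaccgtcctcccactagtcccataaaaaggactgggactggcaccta

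The windows were alike over most of their length, with 227 of 247 aligned bases identical (91.9%), 20 different and 3 opposite a gap. The Hamp window held GGCGCC, and inside it the Hamp2 window differed by G145A, counted from the 5′ end of the Hamp window. This leaves GGCACC, and the Hamp2 window held GGCGCC nowhere else. In both windows 100 bases separated this element from exon 1, and TTCTTGGAA and TGAGTCA followed it at the same spacing. The Hamp2 window also held a second GGCACC, left in small letters, with 2 bases between it and exon 1. Over 32851 RefSeq mouse promoters of 300 bases, read on both strands, 11.9% held GGCGCC, 15.5% GGCACC, 8.30% TTCNNNGAA and 7.81% TGANTCA. The E-box form CACGTG was found in neither window and in 7.15% of promoters. A letter match is a description of these windows of the reference genome, and the promoters of the other strains were not analysed here.

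The transcripts of the genes are also alike, which bears on how their reads were counted. Of the 380 runs of 31 bases in the Hamp transcript of GENCODE M21, 128 (33.7%) also occurred in Hamp2, and 0 genes other than this pair held any of them. The deposited counts show that such reads were divided by estimation. Hamp plus Hamp2 came to a whole number in 130 of 130 libraries, within a tolerance of 1e-06, while neither gene alone was whole in any library. The level of each gene below therefore rests on that division, and the summed count does not. How sequence differences of other strains from C57BL/6J move the division was not tested.

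Totals per library were 10.42 to 20.36 M counts for the diet mice and 9.408 to 20.57 M for the panel. The hepatocyte markers Alb, Apoa1, Ttr, Tat and Cps1 summed to at least 49669 CPM (counts scaled to library size) in every library. The library labelled BXD65 held a summed Y-linked signal of 3.94 CPM, against 118 to 328 CPM in the 114 other panel libraries, which goes against its male label. The family comparisons and relations recomputed without it kept their direction and their side of the threshold.

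In the diet study, both genes were lowest on chow and high on both 2% diets. Levels are given in TPM, a transcript abundance that corrects for length and so allows the genes to be set side by side. Hamp stood at 636, 389 and 882 TPM in the 3 mice on chow, and at 850, 1800 and 1182 TPM on 50 ppm. It stood at 2309, 2985 and 1268 TPM on 500 ppm. All 6 mice on 2% iron were higher than every other mouse, with 3310, 3843 and 3322 TPM on the 2% diet and 4107, 3534 and 3493 TPM with cellulose. The group means rose from 636 ± 246 TPM (SD, n = 3) on chow through 1277 ± 482 on 50 ppm and 2187 ± 865 on 500 ppm to 3492 ± 304 on 2% iron and 3711 ± 343 with cellulose. The mice on both 2% diets lay closer together, with an SD of 8.71% and 9.24% of the mean, against 37.8 to 39.5% on the other diets.

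Hamp2 lay below Hamp in all 15 mice. It stood at 47.7, 60.9 and 98.2 TPM on chow, at 68.6, 153 and 140 TPM on 50 ppm, and at 172, 775 and 91.3 TPM on 500 ppm. On 2% iron it was 441, 682 and 652 TPM, and with cellulose 310, 402 and 648 TPM. Replicate 2 on 500 ppm, the most deeply counted library, held the highest Hamp2 level of all 15 mice, and the other two mice of that group lay in or near the range of the 50 ppm group. With that mouse, the group mean was 346 ± 374 TPM (SD, n = 3), so its SD exceeded the mean. The other Hamp2 means were 68.9 ± 26.2 TPM on chow, 121 ± 45.6 on 50 ppm, 592 ± 131 on 2% iron and 453 ± 175 with cellulose.

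**Figure D1:**
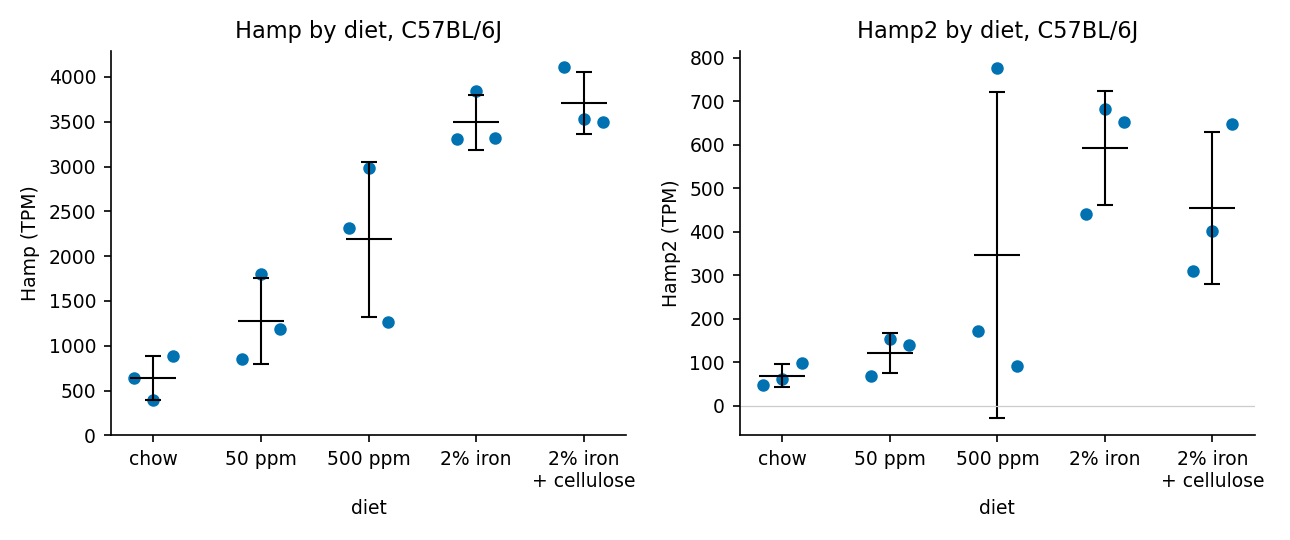
TPM of Hamp and of Hamp2 (vertical axes) in each of 15 C57BL/6J mice by diet (horizontal axis). Points are mice and bars are means with SD of 3 mice. Hamp was above 3300 TPM in the 6 mice on 2% iron. For Hamp2, replicate 2 on 500 ppm was highest at 775 TPM, against 172 and 91.3 TPM in its group mates.

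On 2% iron against 50 ppm, mean Hamp TPM was 2.73-fold and mean Hamp2 TPM 4.90-fold higher, and the groups did not overlap for either gene. For this and the later diet comparisons, the share of all genes whose groups did not overlap was not counted. Both genes were called, meaning an adjusted p under 0.05 in the quasi-likelihood test of edgeR with Benjamini-Hochberg adjustment over 13560 genes. In the same comparison 15.7% of all genes tested were called, with 8.52% of all genes tested higher and 7.17% lower. The log2 change of Hamp was 1.40 (SE 0.30, adjusted p 0.00761) and that of Hamp2 was 2.25 (SE 0.61, adjusted p 0.0245). The Hamp call held when any 1 of the 15 mice was left out. The Hamp2 call was lost without replicate 2 or 3 on 2% iron or without any 1 of the 3 mice on 50 ppm, with adjusted p-values from 0.0508 to 0.109 and log2 changes from 2.01 to 2.45.

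The comparison with chow gave the largest differences of the 6 diet comparisons. Mean Hamp TPM was 5.49-fold and mean Hamp2 TPM 8.59-fold higher on 2% iron than on chow, with no overlap between the groups. The log2 changes by edgeR were 2.34 for Hamp (SE 0.31, adjusted p 2.54e-04) and 2.96 for Hamp2 (SE 0.63, adjusted p 0.00466), in a comparison that called 22.8% of all genes. It shares the mice on 2% iron with the comparison above.

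The smaller steps in iron were not called for either gene. On 500 ppm against 50 ppm the log2 change was 0.79 for Hamp (SE 0.30, unadjusted p 0.0189) and 1.57 for Hamp2 (SE 0.60, unadjusted p 0.0208), with adjusted p-values of 1 by edgeR. In that comparison 0% of all genes were called by edgeR, DESeq2 or limma, and 428 of 13560 had an unadjusted edgeR p under 0.05. On 2% iron against 500 ppm, which called 11.3% of all genes, Hamp differed by 0.61 (SE 0.30, adjusted p 0.212) without overlap of the groups. Hamp2 differed by 0.68 (SE 0.58, adjusted p 0.492) with overlap. Without replicate 2 on 500 ppm the Hamp2 difference was 2.13 and was called, at an adjusted p of 0.00326 by edgeR. On 50 ppm against chow (0.391% of genes called) the log2 changes were 0.94 for Hamp (adjusted p 0.272) and 0.71 for Hamp2 (adjusted p 0.761).

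The ordered test over 50, 500 and 20000 ppm asked whether levels rise along the series as a whole. It gave an exact two-sided permutation p of 0.00357 for Hamp over all assignments of the 9 mice to the 3 diets. For Hamp2 the same exact permutation test gave 0.0738, and 0.0286 without replicate 2 on 500 ppm. The order of Hamp levels thus followed the iron series. The trend of Hamp2 passed the threshold only when replicate 2 on 500 ppm was left out.

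Cellulose in the 2% diet was not followed by a called change of either gene, in a comparison where 0.0811% of genes were called. The log2 change against the plain 2% diet was 0.02 for Hamp (SE 0.30, adjusted p 0.990) and -0.46 for Hamp2 (SE 0.58, adjusted p 0.784) by edgeR. Neighbouring diets in the order of Hamp levels, from chow to cellulose, did not differ beyond the test's threshold at any of the 4 steps.

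The balance between the genes was measured as the share of Hamp2 in the summed TPM of both. It averaged 10.2% on chow, 8.64% on 50 ppm, 11.4% on 500 ppm, 14.4% on 2% iron and 10.96% with cellulose. Replicate 2 on 500 ppm stood apart at 20.6%, against 6.93% and 6.72% in its group mates. An exact permutation test of the log2 ratio of the genes found no difference among the 5 diets past the threshold (p 0.580, 1401400 divisions of 15 mice), nor a trend with iron (p 0.388). The ratio ranged from -3.80 to -1.94 on the log2 scale within the 500 ppm group, where replicate 2 held the highest value. Without that mouse the exact permutation p among the 5 diets was 0.123 and that of the trend 0.304.

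The marker sums of some cells other than hepatocytes also differed between these diets. The summed CPM of 8 macrophage markers lay at 108 to 180 on 50 ppm and at 430 to 470 on 2% iron. For 7 erythroid markers it lay at 68.0 to 110 and at 323 to 478, and for 6 endothelial markers at 209 to 258 and at 294 to 313. The sums of stellate, lymphocyte and cholangiocyte markers overlapped between the diets. Stellate markers lay at 181 to 255 and at 198 to 282, and lymphocyte markers at 2.04 to 3.67 and at 2.99 to 7.04. Cholangiocyte markers lay at 8.37 to 13.5 and at 7.87 to 10.7. The hepatocyte sum did not overlap, at 69267 to 80537 on 50 ppm and at 86139 to 90990 on 2% iron. Nor did that of 12 exocrine pancreas markers, which was lower on 2% iron, at 6.28 to 9.79 and at 4.36 to 6.14. In these bulk samples more cells of a type and more RNA per cell cannot be told apart, and the part of these shifts in the Hamp and Hamp2 results was not tested.

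The known regulators of hepcidin were read in the same comparison, 2% iron against 50 ppm, from a list of 41 genes ordered by role. Of these, 39 were tested, and 10 rose and 5 fell, against 8.52% and 7.17% of all genes. Their median log2 change by role was 1.14 for the 7 BMP/SMAD targets tested and 0.848 for the pair Furin and Slc40a1. It was -0.0070 for 8 ligands, -0.061 for 14 receptors and co-receptors, and 0.084 for 8 transducers, against 0.0092 for all genes. The counts of calls depended on single mice and ranged from 6 to 13 rises and from 2 to 6 falls when 1 mouse was left out, and limma on log2(TPM + 1) called 10 rises and 1 fall. Il6, the inflammatory inducer, and Nog, a BMP antagonist, fell below the filter.

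Among 8 ligands tested, Bmp6 and Fgl1 rose and Bmp7 fell. Bmp6, the main iron-responsive ligand, stood at 4.07, 7.64 and 5.72 CPM on 50 ppm, at 8.61, 13.5 and 8.48 CPM on 500 ppm, and at 25.03, 30.1 and 31.4 CPM on 2% iron. The groups on 50 ppm and 2% iron did not overlap, and the log2 change was 2.31 (SE 0.24, adjusted p 1.27e-04). Fgl1, whose protein binds and blocks BMP ligands, changed by 1.70, a call lost in 3 of 15 fits that left out a mouse. Bmp7 changed by -1.44 (adjusted p 0.0446), a call lost in 11 of those fits. Bmp2, the other endothelial ligand for hepcidin, changed by 0.16 and was not called. Inhbb, the activin B subunit, changed by -2.20 with an adjusted p of 0.0513.

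The iron-sensing proteins of the hepatocyte surface were not among the calls. Hjv changed by 0.12, Tfr2 by -0.18 and Hfe by 0.15. Tmprss6, the protease that cleaves hemojuvelin and restrains hepcidin, fell by 0.33 (adjusted p 0.0249), from 439, 371 and 398 CPM to 308, 350 and 303 CPM. Leaving out single mice ended the calls of Tmprss6, Fkbp1a and Cebpa in 4 of 15 fits each. Of the other receptors and their partners, Acvr2b changed by -1.18 and Fkbp1a by 0.41, both called. Among transducers Smad9 rose by 1.66, while Cebpa changed by -0.40 and Usf2 by -0.50, all called. Stat3 changed by 0.45 with an adjusted p of 0.0563.

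The 5 called BMP/SMAD targets all rose. Id1, an inhibitor of DNA binding and a standard readout of BMP signalling, stood at 5.14, 5.80 and 4.64 CPM on 50 ppm and at 31.9, 35.5 and 31.8 CPM on 2% iron, a log2 change of 2.67 (adjusted p 0.0147). Smad7, the inhibitory SMAD, rose by 2.00 (adjusted p 0.00581) and Atoh8, a transcription factor induced with hepcidin, by 1.61 (adjusted p 8.49e-05). Smad6 rose by 0.80 and Bambi, a decoy receptor, by 0.81. The call of Bambi was lost in 5 and that of Id1 in 2 of the 15 fits that left out a mouse. Id2 and Id3 changed by 0.82 and 1.14 but missed the threshold, at 0.124 and 0.122. Slc40a1, the gene of ferroportin, rose by 1.54 (adjusted p 1.26e-04), and Furin, the protease that matures hepcidin, changed by 0.16 without a call.

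**Figure D2:**
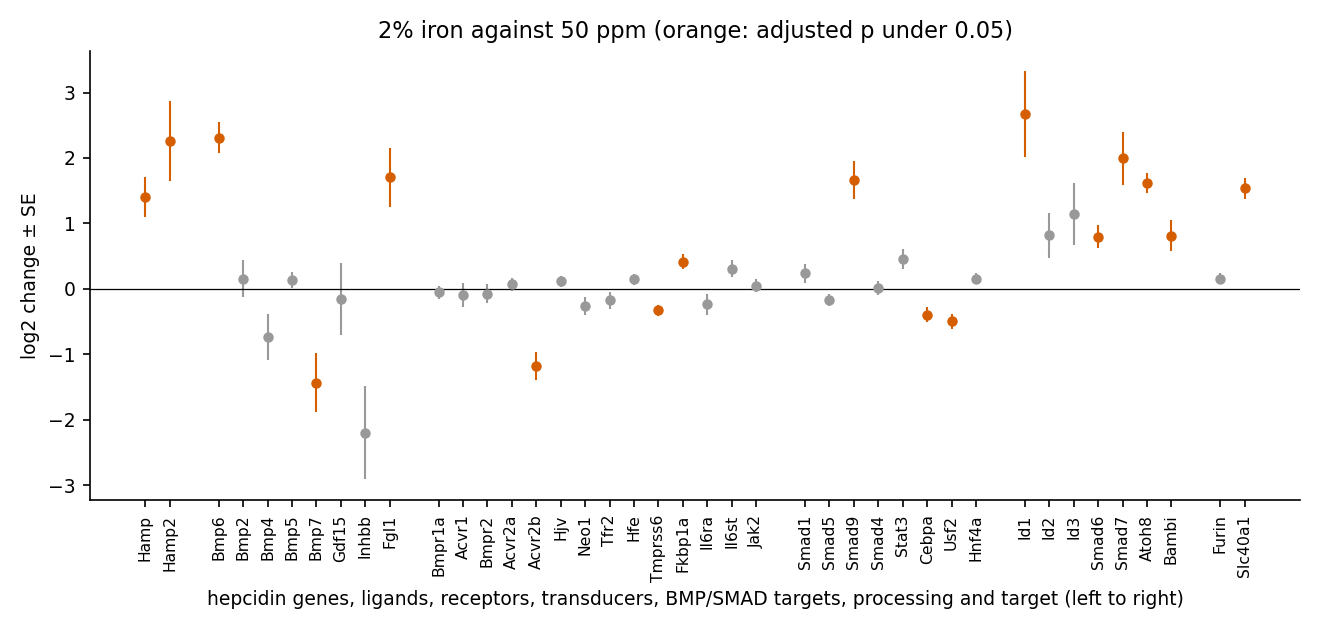
Log2 change with its SE (vertical axis) on 2% iron against 50 ppm, by edgeR. The genes (horizontal axis) are Hamp, Hamp2 and the tested genes of the regulator list. Orange points have an adjusted p under 0.05. Bmp6, Id1, Smad7, Atoh8 and Slc40a1 lie well above 0, and Hjv, Tfr2 and Hfe lie near 0.

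The mouse with the highest Hamp2 on 500 ppm was also high in several of these genes. In replicates 1, 2 and 3 of that group, Id1 stood at 4.13, 21.4 and 4.53 CPM and Smad7 at 10.8, 32.8 and 14.8 CPM. Lcn2, an inflammatory and iron-binding secreted protein, stood at 14.3, 40.3 and 3.81 CPM. For Bmp6 the same mouse was less set apart, at 13.5 CPM against 8.61 and 8.48 CPM. In 500 ppm against 50 ppm, 0 of the 39 regulators were called by edgeR, and 6 had an unadjusted p under 0.05.

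Inflammation is the other input to hepcidin, and its markers moved in both directions. Of 16 acute phase genes, Lcn2 (2.76), Apcs (1.35), Hpx (0.80), Itih3 (0.78) and Cp (0.60) rose on 2% iron against 50 ppm. The calls of Lcn2, Apcs, Hpx, Itih3 and Saa1 were lost in 3 to 5 of the 15 fits that left out a mouse. The serum amyloid genes Saa1 (-2.40) and Saa2 (-2.27) fell. Saa1 stood at 72.5, 121 and 51.3 CPM on 50 ppm and at 18.7, 10.4 and 17.2 CPM on 2% iron. Against chow, 8 of the 16 rose and 0 fell by edgeR, against 11.9% and 10.9% of all genes, so the falls of the serum amyloid genes were called against 50 ppm and not against chow. Whether the 2 comparisons differ was not tested.

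In the panel, where every mouse ate the 2% diet, Hamp2 differed far more between strains than Hamp. Hamp2 ran from 147 TPM in BTBR T<+> tf/J to 14581 TPM in BXD33/TyJ, a 99.0-fold range with a median of 770 TPM. Hamp ran from 1020 TPM in DBA/2J to 6348 TPM in BXD67/RwwJ, a 6.22-fold range with a median of 4092 TPM. With 1 mouse per strain, single strains next to each other in these orders cannot be separated. On log2 CPM, the SD between strains was 1.89 for Hamp2 and 0.395 for Hamp. Between mice of the same diet and strain in the diet study it was 0.831 for Hamp2 and 0.421 for Hamp over the 5 diets, and 0.446 and 0.108 within the groups on 2% iron, a comparison across tables that were processed separately. The only strain with 2 panel mice, 129X1/SvJ, gave Hamp at 6188 and 5709 TPM and Hamp2 at 1390 and 833 TPM.

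The strains fell into separate levels of the Hamp2 to Hamp ratio. In 28 of 114 strains Hamp2 TPM exceeded Hamp TPM, and no strain had a ratio between 0.356 (BXD5/TyJ, with 4938 TPM of Hamp and 1759 TPM of Hamp2) and 1.12 (BXD48/RwwJ, with 3355 and 3750 TPM). The share of Hamp2 in the sum of both ranged from 4.32% in I/LnJ to 81.1% in BXD62/RwwJ. The sum itself, which depends little on how reads were divided, ran from 2223 TPM in SJL/J to 18538 TPM in BXD33/TyJ, with 4228 TPM in C57BL/6J. The marker sums of other cells overlapped widely between the levels, although their medians differed for some lists. The erythroid sum ran from 12.6 to 1644 CPM (median 415) in the 28 strains and from 3.67 to 2623 CPM (median 141.8) in the others. The acute phase sum ran from 15976 to 93889 CPM (median 33878) and from 19260 to 71423 CPM (median 27292). The levels are themselves read from the data, and the part of these sums was not tested. In BXD33/TyJ the sum of Hamp and Hamp2 was well above that of C57BL/6J, and NZW/LacJ, with Hamp at 4616 TPM and Hamp2 at 13499 TPM, was close to it.

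**Figure D3:**
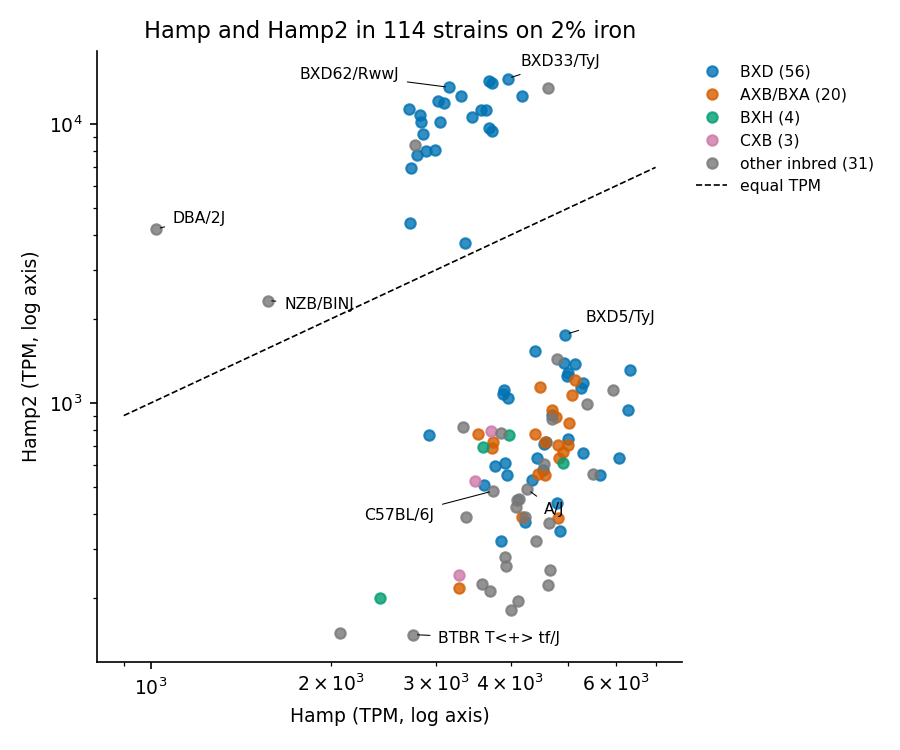
Hamp TPM (horizontal, log axis) against Hamp2 TPM (vertical, log axis) in 114 strains on 2% iron, each point a strain and each colour a family. The dashed line marks equal TPM. The 28 strains above the line are 24 BXD strains, DBA/2J, NZB/BlNJ, NZW/LacJ and RIIIS/J.

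Membership of the upper level went with family. It held 24 of 56 BXD strains (42.9%, Wilson 95% interval 30.8 to 55.9%), and 0 of 20 AXB/BXA strains, for which the interval reaches 16.1%. It held 0 of 4 BXH and 0 of 3 CXB strains, and 4 of 31 other inbred strains. These 4 were DBA/2J, with Hamp at 1020 TPM and Hamp2 at 4208 TPM, NZB/BlNJ (1567 and 2329 TPM), NZW/LacJ and RIIIS/J (2772 and 8399 TPM). DBA/2J is a parent of the BXD strains, and C57BL/6J, with Hamp at 3745 TPM and Hamp2 at 483.1 TPM, is the other. The parents of the other families were all in the lower level. A/J had 4270 TPM of Hamp and 490 TPM of Hamp2, C3H/HeJ had 5367 and 987 TPM, and BALB/cByJ had 3368 and 388 TPM.

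**Figure D4:**
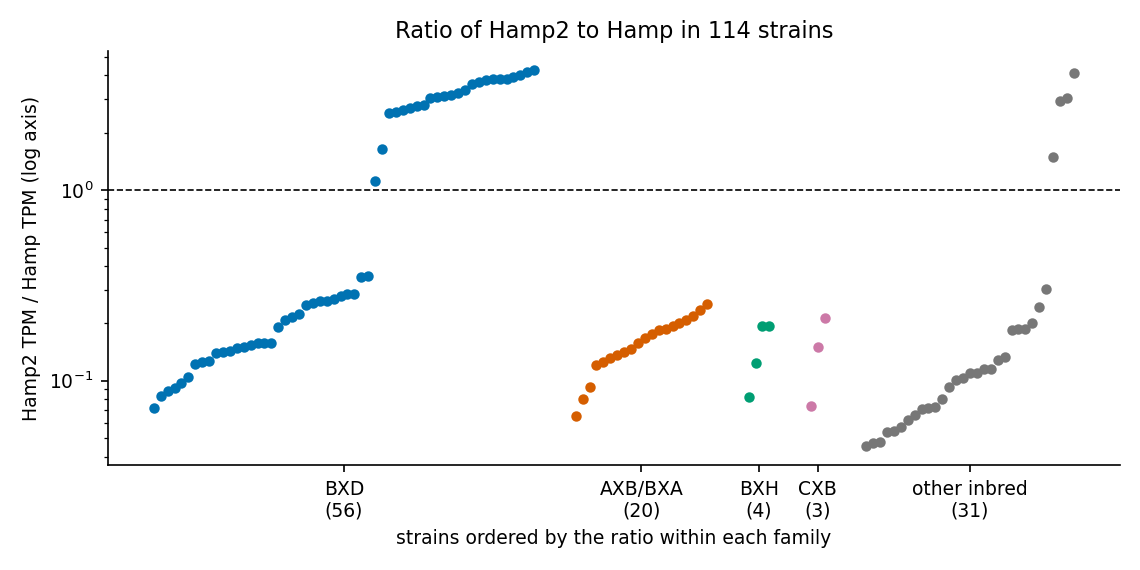
Ratio of Hamp2 TPM to Hamp TPM (vertical, log axis) in 114 strains, ordered by ratio within each family (horizontal axis), each point a strain. The dashed line marks a ratio of 1, with 24 BXD and 4 other inbred strains above it.

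The family test showed the same for levels. Hamp2 was higher in BXD than in AXB/BXA strains by 2.74 on the log2 scale (SE 0.51, adjusted p 3.15e-05 by edgeR), where 8.14% of 15686 genes were called. It was higher in BXD than in the other inbred strains by 1.83 (SE 0.40, adjusted p 3.01e-04), where 19.0% were called. AXB/BXA and other inbred strains differed by -0.91 (SE 0.48, adjusted p 0.182), in a comparison calling 17.6%, and the sign turned to 0.28 under limma on log2(TPM + 1) (adjusted p 0.764). Hamp was called in none of the 3, at -0.16 (SE 0.10), 0.01 (SE 0.08) and 0.17 (SE 0.11), with edgeR adjusted p-values of 0.321, 0.958 and 0.263. Medians over the 56 BXD strains were 3904 TPM for Hamp and 1344 TPM for Hamp2, over the 20 AXB/BXA strains 4639 and 715 TPM, and over the 31 other inbred strains 4095 and 447 TPM. The median of Hamp2 was thus higher in AXB/BXA than in other inbred strains, against the sign of the edgeR difference.

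Both genes passed beyond their parents in many recombinant strains. Hamp was above both parents in 32 of 56 BXD strains, between them in 24 and below both in 0. Hamp2 was above both parents in 23 BXD strains, between them in 29 and below both in 4. In AXB/BXA strains Hamp2 was above A/J and C57BL/6J in 17 of 20, and those parents differed by only 490 against 483.1 TPM. Each parent is a single panel mouse, so these counts carry the error of that mouse. Strains with related names, each with 1 mouse, were counted as separate strains and also differed. AXB19/PgnJ, AXB19a/PgnJ and AXB19b/PgnJ had Hamp2 at 1208, 844 and 944 TPM, while BXD48/RwwJ and BXD48a/RwwJ had 3750 and 6971 TPM.

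Because of these levels, the relation of Hamp with Hamp2 was tested only within strains of low or of high Hamp2. The strains were divided at 344 CPM of Hamp2, the midpoint between C57BL/6J and DBA/2J on the log2 scale. Among 83 strains with low Hamp2 the genes rose together, with Pearson's r 0.586 and Spearman's rho 0.435 (permutation p adjusted over 6 relations 6.00e-05 for r). Without the 2 strains farthest from the median of Hamp2, r was 0.471. Within families of that level r was 0.291 in 30 BXD, 0.368 in 20 AXB/BXA and 0.640 in 26 other inbred strains. Only the last passed the threshold, at an adjusted permutation p of 9.00e-04, and it did not without its 2 farthest strains (r 0.455, adjusted permutation p 0.0774). Among 31 strains with high Hamp2, r was -0.06 and rho 0.165. That value turned to 0.654 when the upper level was taken as Hamp2 TPM above Hamp TPM, a limit chosen after seeing the data that leaves out C57BLKS/J, BXD5/TyJ and BXD51/RwwJ, which lie just above 344 CPM.

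Relations with 12 regulators and iron genes were computed in both levels, 24 for each gene and 48 adjusted together. For Hamp2, 8 of the 24 passed by r, all among the 83 strains with low Hamp2, and 5 passed by rho. The strongest were Hjv (r 0.464, adjusted permutation p 4.80e-04) and Lcn2 (r -0.431, adjusted permutation p 9.60e-04). Without the 2 farthest strains these were 0.423 and -0.367. Smad7 (0.394), Smad6 (0.376), Tmprss6 (0.338), Slc40a1 (-0.316), Id1 (0.300) and Atoh8 (0.283) followed. Without the 2 farthest strains Smad7 (0.318), Smad6 (0.379) and Slc40a1 (-0.295) still passed. Tmprss6 (0.269), Id1 (0.214) and Atoh8 (0.199) did not, so the calls of those 3 depended on these strains. Bmp6, the ligand that rose on 2% iron in the diet study, had an r of 0.015 with Hamp2 across these strains.

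The direction held in every large family for part of these genes. With Lcn2, r was -0.400 in BXD, -0.368 in AXB/BXA and -0.448 in other inbred strains. With Slc40a1 it was -0.565, -0.283 and -0.220 in the same order. Smad6 (0.227, 0.309 and 0.406), Hjv (0.224, 0.170 and 0.343) and Tmprss6 (0.498, 0.066 and 0.556) also kept their sign. By unadjusted permutation p, Hjv was under 0.05 in no family (0.23, 0.48 and 0.086). Smad6 was under 0.05 only in other inbred strains (0.038) and Slc40a1 only in BXD strains (0.0014). Lcn2 (0.029 and 0.022) and Tmprss6 (0.0051 and 0.0027) were under 0.05 in BXD and other inbred strains. With Smad7 r was -0.105, 0.218 and 0.541, with Id1 -0.153, 0.267 and 0.420, and with Atoh8 -0.097, 0.047 and 0.584, so these 3 pooled relations did not hold within BXD strains. For Hamp in the same 83 strains, the highest values were those of Tfr2 (r 0.412), Smad7 (0.377) and Tmprss6 (0.359), of which Smad7 and Tmprss6 also passed with Hamp2. Without the 2 farthest strains these were 0.451, 0.267 and 0.306, and Smad7 no longer passed. In BXD, AXB/BXA and other inbred strains, r with Hamp was 0.26, 0.46 and 0.47 for Tfr2, -0.159, 0.474 and 0.421 for Smad7, and 0.122, 0.261 and 0.478 for Tmprss6. The relation with Smad7 thus did not hold within BXD strains for Hamp either. Among the 31 strains with high Hamp2, Hamp related to Atoh8 (0.69), Smad7 (0.57) and Id1 (0.57). These 3 values were 0.406, 0.240 and 0.311 without the 2 farthest strains, and none passed, so the calls depended on those strains. Whether Hamp and Hamp2 differ in their relation to a regulator was not tested.

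Genes whose pattern was most like that of Hamp2 lay mostly beside it. Likeness was the absolute Spearman rho over the 56 BXD strains, among 12832 genes, given as a description because all strains share 1 set of libraries and 2 parental genomes. Of the 10 most alike, 7 were on chromosome 7 within 4 Mb of Hamp2. They were Lgi4 (0.72), Cd22 (-0.69), Hspb6 (-0.62), Fam187b (-0.62), Pepd (0.62), Zfp383 (0.61) and Hamp itself (-0.56). The value of Hamp spans both levels of Hamp2, unlike the relations within a level above, and rests on the division of reads between the genes. The others were Kl on chromosome 5 (-0.72), Tpd52 on chromosome 3 (-0.58) and Gm1840 (0.70). Gm1840 is a pseudogene on chromosome 8 that shares 829 of its 1402 runs of 31 bases with Gpi1, a gene of chromosome 7 at 34201330 to 34230336, so their reads can be exchanged.

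An absolute rho of at least 0.5 with Hamp2 was reached by 12 of 129 genes within 5 Mb on chromosome 7. It was reached by 2 of 260 genes at 5 to 20 Mb, by none beyond 20 Mb along the chromosome, and by 17 of 11830 elsewhere. Neighbouring genes are mostly inherited together in recombinant inbred strains, and the part of this in the values was not tested.

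**Figure D5:**
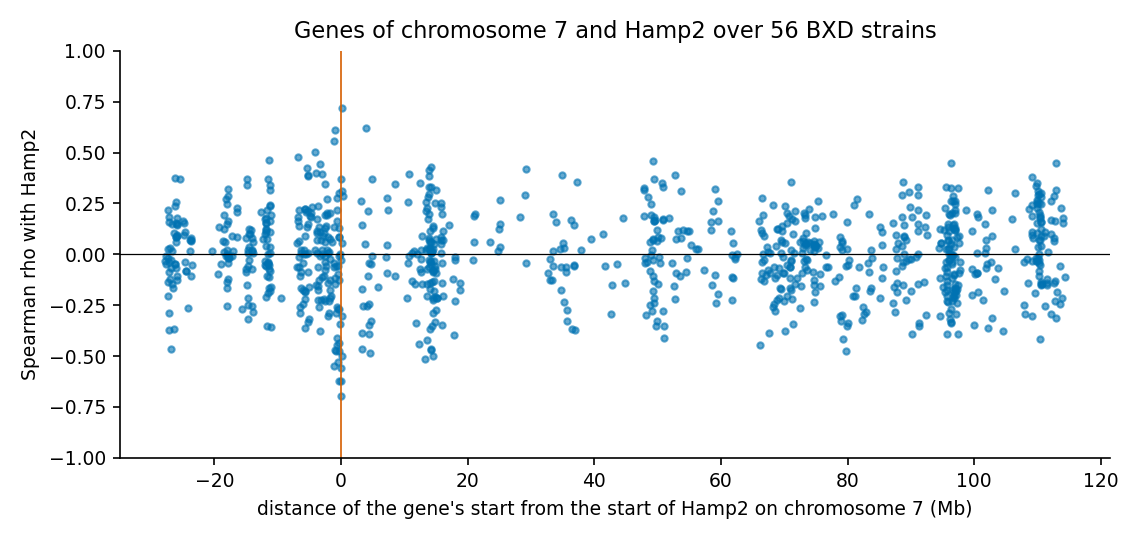
Spearman rho with Hamp2 over 56 BXD strains (vertical axis) for genes of chromosome 7 by distance from the Hamp2 start in Mb (horizontal axis), each point a gene. Of the values at or past 0.5 in size, 12 lie within 5 Mb of Hamp2, in both directions, and 2 lie at 5 to 20 Mb.

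Hamp was most like Fam187b (0.75), Hspb6 (0.72), Gm1840 (-0.69), Fxyd1 (0.68) and Kl (0.65) over the BXD strains. Over all 114 strains it was most like Fxyd1 (0.60), Hspb6 (0.60), Kl (0.57), Gm1840 (-0.57) and Prodh2 (0.51). Over the 15 mice of the diet study other genes led, with Ndufaf1 (-0.96), Atp6v1g1 (0.96), 1190002N15Rik (0.95), Clic5 (-0.95) and Bcs1l (-0.95), so 0 genes were in both the strain and the diet lists. Of the genes starting within 250 kb of Hamp, 23 are protein-coding neighbours and 12 were tested. On 2% iron against 50 ppm, Fxyd5 (1.58) and Cd22 (1.15) rose and Usf2 (-0.50), whose gene starts 12.8 kb before Hamp, fell. Over all genes 8.52% rose and 7.17% fell, a share that 1 fall among 12 neighbours lies close to.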

How the data were processed

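Liver RNA-seq of 130 mice labelled male was analysed, 15 in the diet study and 115 in the panel. The authors deposited estimated counts and TPM per gene, in separate tables for each study. The submitters' processing notes list kallisto 0.46 and mm10, without their role. The estimated counts were not whole numbers, so they were rounded for count tests, where whole counts had been assumed. Symbols and coordinates came from GENCODE M21 on GRCm38, which matched 34845 of 35274 and 35612 of 35711 identifiers. Promoters came from RefSeq.

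Tests were two-sided. Gene tests used edgeR 4.0.16 in R 4.3.3 (TMM, filterByExpr, quasi-likelihood test, Benjamini-Hochberg, threshold 0.05) on the 5 diets together or the 114 strains in 5 families, with the 2 mice of 129X1/SvJ summed. Relations used log2 CPM with a prior count of 2 and 100000 permutations, whose smallest p is 1e-05. The alternatives were RLE factors, no filter, the compared groups alone, DESeq2 1.42.0, limma 3.58.1 on log2 TPM with a pseudocount of 1 or 0.1, each mouse of the diet study left out, the library labelled BXD65 left out, and other limits between low and high Hamp2. Another alternative summed the libraries of strains with related names (AXB19, BXD48 and BALB/c) for the family tests. Python 3.11.15, scipy 1.17.1 and matplotlib 3.10.9 served for the rest. Tested on simulated data for 2% iron against 50 ppm, the diet test recovered 54% of changes of 1 on the log2 scale and 100% of changes of 2 among 13297 genes. The simulation gave every gene the same spread and changed only well counted genes. These shares are therefore not the recovery for Hamp or Hamp2.

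The members and lists were chosen with earlier results of these data known. Genes named were Hamp, Hamp2, the regulator, acute phase and marker lists, coding neighbours within 250 kb, and the genes most alike (10 for Hamp2, 5 for Hamp in each sample set, mean of at least 1 CPM). Gpi1 and C57BLKS/J, BXD5/TyJ and BXD51/RwwJ were named after their values were seen. Replicate numbers were given in accession order and pair no mice. Intervals cover counting of strains only. Transcript sequence of the genes is not reported here.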

Additional observations from a re-analysis of the deposited data

How the results depend on the processing

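Over all alternatives, 339 values that answer a comparison kept their direction and side of the threshold. The exceptions were as follows. Left out 1 mouse at a time, Hamp2 on 2% iron against 50 ppm ranged from 2.01 to 2.45 on the log2 scale, and 5 of these fits lost the call. Hamp2 on 2% iron against 500 ppm ranged from 0.23 to 2.13 and was called without replicate 2 on 500 ppm. Hamp with cellulose against plain 2% iron ranged from -0.050 to 0.078, turning sign at values of -0.016 and -0.050 without replicate 1 of either group. The exact permutation p of the Hamp2 trend ranged from 0.0286 to 0.193. Under limma on log2(TPM + 1), AXB/BXA against other inbred strains turned to 0.28 for Hamp2 (adjusted p 0.764). The count of called relations of Hamp2 with Hamp fell from 2 to 1 without the 2 farthest strains, and that with regulators from 8 to 5, both there and on log2(TPM + 1). By rho, the first count rose from 2 to 4 and the second stayed at 5 without those strains. The count of Hamp with regulators fell there from 9 to 2 by r and from 3 to 1 by rho, and that of Hamp2 with regulators rose to 12 by r with the limit at equal TPM. The relation of Hamp2 with Hamp among strains of high Hamp2 changed sign. It was 0.062 on log2(TPM + 1), 0.297 without the 2 farthest strains, 0.533 with the limit at the midpoint of linear CPM and 0.654 with the limit at equal TPM. In BXD strains of high Hamp2 it was -0.399, and 0.327 under the last 3 settings. The cause of these changes was not tested.

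No paired analysis was possible because the labels give the mice of different diets no shared numbers, and the panel has 1 mouse per strain. With 3 mice per diet, log2 changes had SEs of 0.30 for Hamp and 0.61 for Hamp2 on 2% iron against 50 ppm, which limits what smaller steps can show. Hamp and Hamp2 share runs of bases, and the effect of strain sequence on the division of their reads was not tested. The panel has no mice on low iron, so strain levels are levels on 2% iron, not responses.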
